A study of Homo sapiens with 12 samples.

Results

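The 10 genes described here belong to the NF-kB system: the 5 Rel-family subunits NFKB1, NFKB2, REL, RELA and RELB, and 5 genes that restrain or tune the pathway and are themselves known targets of it, NFKBIA, NFKBIE, NFKBIZ, TNFAIP3 and BIRC3. They were taken by gene symbol, and all 10 were found among the 16383 genes of the deposited table. RNA was sequenced from IMR90, an established line of human lung fibroblasts that the labels give as wild type, so all groups come from 1 line. The labels name 4 groups of 3 libraries: proliferating cells that received no treatment, and cells exposed to 20 Gy of ionizing radiation over 10 min that then received DMSO (the vehicle), palbociclib or ruxolitinib, each inhibitor at 2 µM, with dosing from day 4 that was repeated on days 6, 8 and 10. The 3 irradiated groups were harvested on day 11 after irradiation and are called senescent below, as in the labels. Palbociclib inhibits the cyclin-dependent kinases that drive entry into S phase, and ruxolitinib inhibits Janus kinases. The untreated proliferating cells had no vehicle, and no harvest day is given for them. Irradiation, vehicle, time in culture and arrest thus cannot be told apart in comparisons with them.

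NF-kB is a family of dimeric transcription factors held in the cytoplasm by inhibitors called IkB proteins. Signals from cytokine receptors, Toll-like receptors or damaged DNA activate the IkB kinase complex, the inhibitor is degraded, and the dimer enters the nucleus. Among the genes it switches on are its own inhibitors, which close a negative feedback loop, and in senescent fibroblasts it is a known driver of the secreted inflammatory factors termed the senescence-associated secretory phenotype. A change in the RNA of a subunit or inhibitor is a change in the parts list and does not by itself measure nuclear NF-kB.

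The sequences upstream of the members are shown because several of these genes are textbook NF-kB targets and the members moved differently in these data. RefSeq promoter windows of 300 bases (250 before and 50 after an annotated start, GRCh38.p14) were matched for 8 of the 10 members, in 13 windows; RELB and NFKBIE had no entry. The 250 bases before the start are printed 5′ to 3′ on the gene's strand, with matches to the NF-kB consensus on either strand in capitals.
NFKBIA (chr14:35404750-35404999, minus strand): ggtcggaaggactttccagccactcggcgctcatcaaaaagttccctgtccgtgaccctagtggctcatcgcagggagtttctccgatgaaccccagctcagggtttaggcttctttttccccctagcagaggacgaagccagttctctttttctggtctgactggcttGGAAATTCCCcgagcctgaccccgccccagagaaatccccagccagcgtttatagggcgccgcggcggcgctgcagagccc
TNFAIP3 (chr6:137867009-137867258, plus strand): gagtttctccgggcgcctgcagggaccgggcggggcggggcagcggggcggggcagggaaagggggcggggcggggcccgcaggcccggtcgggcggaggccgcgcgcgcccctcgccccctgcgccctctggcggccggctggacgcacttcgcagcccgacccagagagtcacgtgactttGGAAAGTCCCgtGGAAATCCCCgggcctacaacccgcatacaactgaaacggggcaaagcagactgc
BIRC3 (chr11:102317234-102317483, plus strand): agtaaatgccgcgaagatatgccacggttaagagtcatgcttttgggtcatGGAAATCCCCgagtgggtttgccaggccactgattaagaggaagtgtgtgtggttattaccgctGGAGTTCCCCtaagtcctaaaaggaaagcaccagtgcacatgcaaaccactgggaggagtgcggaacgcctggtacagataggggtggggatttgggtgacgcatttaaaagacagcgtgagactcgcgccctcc
NFKBIZ, the first of its windows (chr3:101827740-101827989, plus strand): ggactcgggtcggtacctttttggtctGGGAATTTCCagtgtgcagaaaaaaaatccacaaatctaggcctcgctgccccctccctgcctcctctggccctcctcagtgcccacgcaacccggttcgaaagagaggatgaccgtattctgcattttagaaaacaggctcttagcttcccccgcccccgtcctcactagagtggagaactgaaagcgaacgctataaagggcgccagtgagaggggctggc
NFKB1, the first of its windows (chr4:102501109-102501358, plus strand): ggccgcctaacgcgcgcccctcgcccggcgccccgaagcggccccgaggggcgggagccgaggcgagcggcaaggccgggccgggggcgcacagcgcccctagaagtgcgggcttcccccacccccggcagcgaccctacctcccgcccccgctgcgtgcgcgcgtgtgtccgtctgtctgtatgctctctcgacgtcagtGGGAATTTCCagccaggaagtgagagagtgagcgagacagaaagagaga
RELA, the second of its windows (chr11:65662917-65663166, minus strand): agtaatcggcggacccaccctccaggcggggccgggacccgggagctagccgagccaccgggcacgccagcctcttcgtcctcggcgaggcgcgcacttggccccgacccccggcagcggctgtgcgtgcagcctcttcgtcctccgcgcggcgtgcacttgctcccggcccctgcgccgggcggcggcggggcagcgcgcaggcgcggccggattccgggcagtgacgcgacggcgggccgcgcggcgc

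The consensus searched was GGGRNNYYCC, where R is A or G, Y is C or T and N is any base. A match was present in at least 1 window of 7 of these 8 genes, the exception being RELA, whose pair of windows held none. Background shares were 11.3% of 35116 RefSeq windows and 17.5% of the 9163 tested genes that had a window. NFKBIA held GGAAATTCCC from 81 to 72 bases before its start, and TNFAIP3 held GGAAAGTCCC and GGAAATCCCC from 67 to 58 and from 55 to 46 bases before. BIRC3 held GGAAATCCCC and GGAGTTCCCC further upstream, beginning 199 and 135 bases before the start. NFKB1 and NFKBIZ shared the letters GGGAATTTCC, 49 to 40 and 223 to 214 bases before the start. REL held GGGAAATTCC and GGAAATTCCC, which overlap by all but 1 base, and NFKB2 held 5 matches over the second and the third of its windows, 2 of them overlapping. These are matches of letters and not measured binding, and the absence of a match says only that these letters are not in that window. A link between matches and changes in level was not tested. In the values as deposited, NFKB2 with its 5 matches and RELA without any both stayed within their spread under either inhibitor against DMSO. NFKB1, REL, NFKBIA, NFKBIZ, TNFAIP3 and BIRC3, which also held a match, were all called lower with palbociclib than with DMSO. With ruxolitinib, only TNFAIP3 and BIRC3 of these were called lower.

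**Figure D1:**
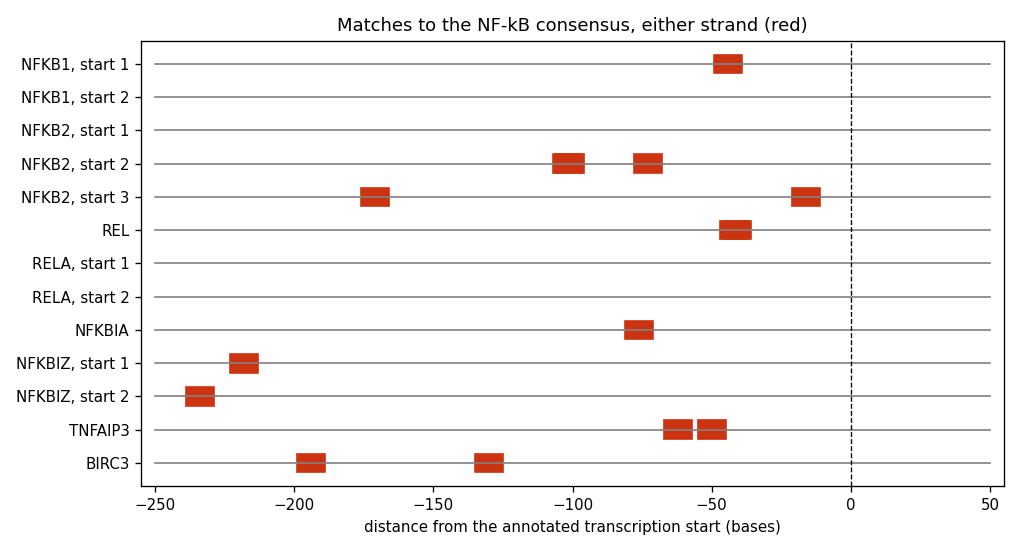
Positions of NF-kB consensus matches in the 13 RefSeq promoter windows of 8 members. The horizontal axis is the distance in bases from the annotated start (dashed line), each grey line is 1 window and each red box 1 match; 15 matches lie in the windows of 7 genes and none in those of RELA.

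Values are the authors' normalized counts, that is, reads per gene divided by 1 factor per library, and differences are log2(normalized count + 1) of one group minus another with the standard error of the fit (SE). Recovered reads ranged from 14106799 to 21762412 per library, and calls were made in a limma fit over all 12 libraries and 11242 genes, at a Benjamini-Hochberg adjusted p below 0.05. Nothing in the labels says that replicates came from separate cultures, so p-values measure the spread between these libraries, which may be technical. Libraries are named by the numbers in the column names, and per-library values are given in the order A125, A126, A127 (proliferating), A116, A117, A118 (DMSO), A119, A120, A121 (palbociclib) and A122, A123, A124 (ruxolitinib). A119, A120 and A126 stood apart within their groups on the fourth principal component (3% of the variance), and member calls that change when all of them are left out are given with both adjusted p-values. CDKN1A, which encodes a cell-cycle inhibitor, averaged 3389 in proliferating, 29150 in DMSO, 14779 in palbociclib and 31744 in ruxolitinib cells. CDKN2A, another such gene, averaged 167 in proliferating and 174 in DMSO cells (adjusted p = 0.595, not called), 120.3 with palbociclib and 189.6 with ruxolitinib. MKI67, a proliferation marker, averaged 13062 in proliferating, 1011 in DMSO, 82.5 in palbociclib and 700 in ruxolitinib cells. LMNB1, a lamin gene, averaged 3911, 153, 31.6 and 129 in the same order, so both were lowest with palbociclib. MX1, an interferon-stimulated gene, averaged 24.9 in proliferating, 2477 in DMSO, 147 in palbociclib and 25.5 in ruxolitinib cells. All 10 fibroblast markers were present in every group. Because these are bulk RNA samples, fewer cells expressing a gene and less RNA per cell cannot be told apart.

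Senescent DMSO cells carried more RNA for all 5 inhibitor and feedback genes than proliferating cells, from 1.25-fold for NFKBIA to 2.77-fold for NFKBIZ, while NFKB1 fell to 0.67 of its proliferating level. Palbociclib lowered 8 of the 10 members relative to DMSO, TNFAIP3 to 0.196 and BIRC3 to 0.36 of the DMSO level, and left RELA and NFKB2 within their spread. Ruxolitinib lowered TNFAIP3 and BIRC3, by less than palbociclib did. In counts, 7 members were higher and 1 lower in DMSO than in proliferating cells, against 33% and 39.3% of all genes tested; the 8 of 10 called lie near the 72.4% called over all genes. With palbociclib against DMSO, 8 members were lower and 0 higher, where 22.3% of all genes were lower, 26% higher and 48.3% called in either direction. With ruxolitinib against DMSO, 2 members were lower and 0 higher, where 3.42% of all genes were lower, 1.1% higher and 4.52% called. The count of members higher with an inhibitor than with DMSO was also 0 in limma at an unadjusted p under 0.05, in edgeR and in DESeq2. Groups did not overlap for 8, 8 and 3 members in these comparisons, against 75.1%, 54.8% and 31.9% of all genes. The median log2 difference over the 10 members was 0.33, -0.76 and -0.08 in these 3 comparisons, and that over all genes tested was -0.05, 0.02 and 0.00. The share of members lowered by palbociclib was thus above the background share, as was the share higher in DMSO than in proliferating cells. The share called in either direction between DMSO and proliferating cells was close to its background. The members were chosen with earlier results of these data known, so these shares are descriptions. Without A119, A120 and A126, the members higher in DMSO than in proliferating cells numbered 8 (RELB added) and those lower 2 (REL added), and 3 were lower with ruxolitinib than with DMSO (NFKB1 added).

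**Figure D2:**
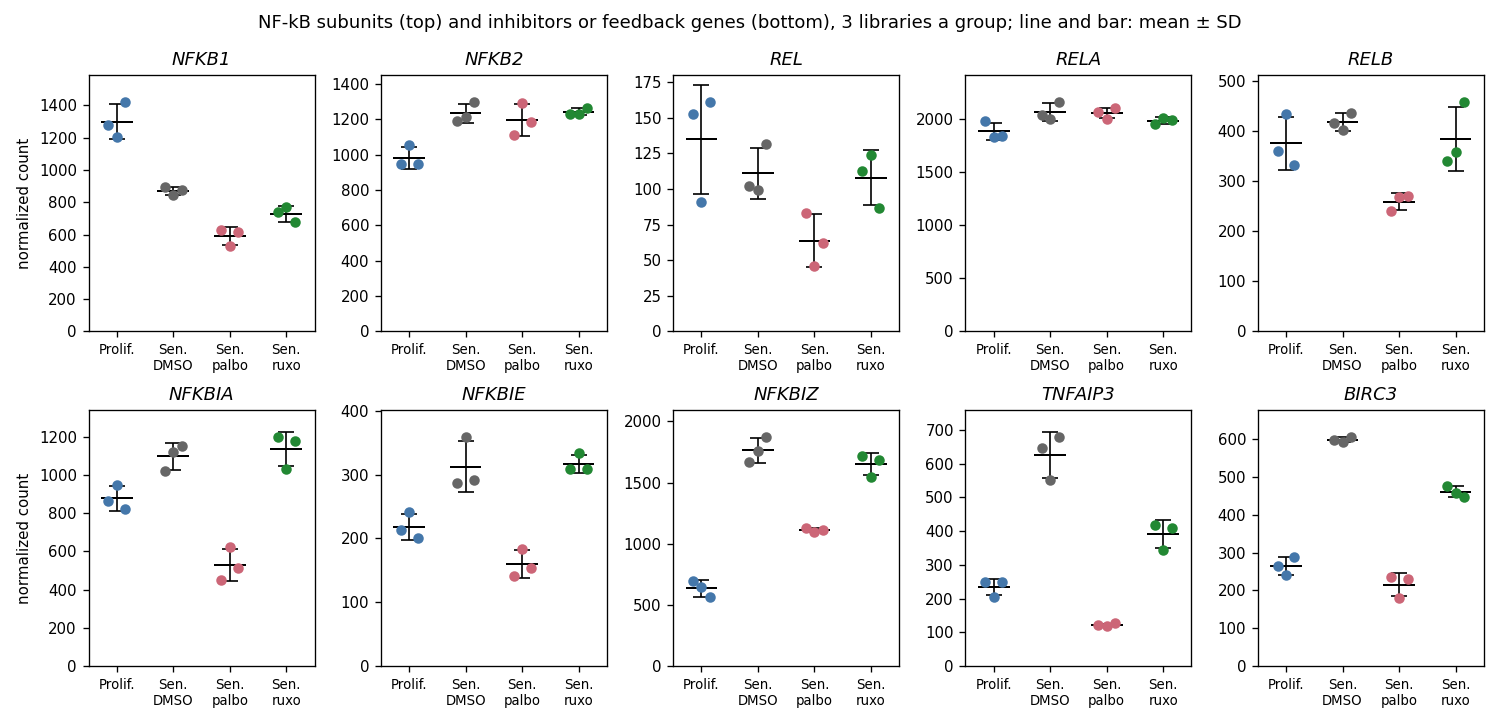
Normalized counts of the 10 members in 12 libraries, with the vertical axis starting at 0 in every panel; points are libraries, the line and bar the mean and SD of 3. RELA varies little between groups, NFKB1 is highest in proliferating cells, and the 5 lower panels drop in palbociclib cells below the DMSO points.

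**Figure D3:**
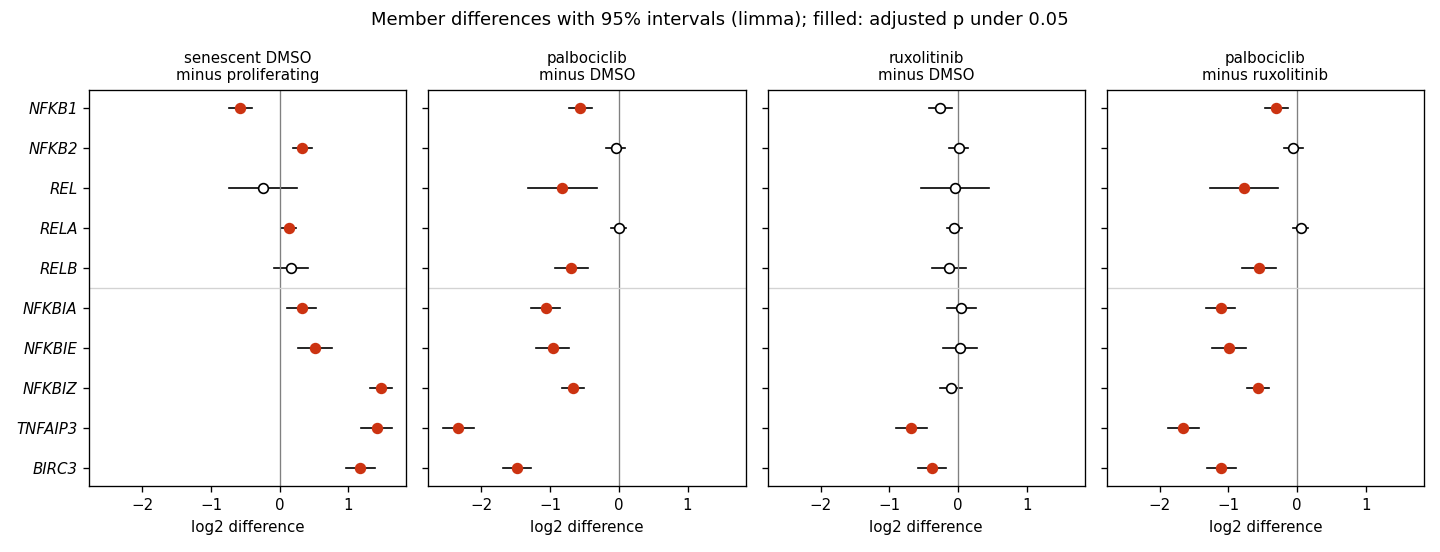
Log2 differences of the 10 members in 4 comparisons, with 95% intervals from limma; filled points have an adjusted p under 0.05. Palbociclib minus DMSO shows 8 filled points, all below 0, and ruxolitinib minus DMSO shows 2.

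NFKB1 (chr4:102501330-102617302, GRCh38, plus strand) encodes the precursor of a subunit that lacks its own activation domain and pairs with RELA in the most common dimer. It measured 1277, 1203 and 1419 normalized counts in proliferating cells and 894, 844 and 875 in DMSO cells. Palbociclib cells had 631, 529.8 and 615, and ruxolitinib cells 739.9, 773 and 676. Among the 10 members NFKB1 alone was lower in all 3 senescent groups than in proliferating cells with a call each time, and neither the DMSO nor the drug libraries overlapped the proliferating ones. The log2 difference was -0.57 (SE 0.08, adjusted p = 9.04e-06) for DMSO against proliferating cells. Palbociclib lowered it by another step, with a difference from DMSO of -0.56 (SE 0.08, adjusted p = 3.86e-05). For ruxolitinib the difference from DMSO was -0.26 (SE 0.08, adjusted p = 0.0913) although the libraries did not overlap; it was called without A120 (adjusted p = 0.0294), without A119, A120 and A126 (0.00217), in a fit of these 2 groups alone (0.00134), after removal of the GC and length trend (0.0278) and with all libraries scaled to the same total (0.0485).

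NFKB2 (chr10:102394110-102402524, plus strand) encodes the precursor processed in the non-canonical branch of the pathway. Its levels were 944, 1051 and 944 in proliferating cells and 1189.8, 1211 and 1295 in DMSO cells. With palbociclib they were 1111, 1291 and 1186, and with ruxolitinib 1227.5, 1231 and 1263. Every senescent library lay above every proliferating one, and the 3 senescent groups overlapped. NFKB2 rose by 0.33 (SE 0.07, adjusted p = 0.000295) in DMSO against proliferating cells. Against DMSO, the difference was -0.04 for palbociclib (95% interval -0.18 to 0.09, adjusted p = 0.597) and 0.01 for ruxolitinib (-0.13 to 0.15, adjusted p = 0.965). The 2 precursor genes thus moved in opposite directions between proliferating and senescent cells, and their log2 levels had a Pearson r of -0.79 over the 12 libraries, which fall in 4 groups.

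RELA (chr11:65653599-65663090, minus strand) encodes the main transactivating subunit and is the member whose printed upstream sequence holds no consensus match. It was the steadiest member, with 1979, 1832 and 1839.7 in proliferating, 2034, 1995 and 2156.5 in DMSO, 2064, 2001 and 2101 in palbociclib and 1952, 2012 and 1988 in ruxolitinib cells. The 12 values span a narrow range, and the 3 senescent groups overlap one another. The difference between DMSO and proliferating cells was 0.13 (SE 0.05, adjusted p = 0.0305), and the call was lost without A118 (adjusted p = 0.138), A126 (0.0854) or A127 (0.0911) and once trends with GC content and transcript length had been removed within each library (0.02, adjusted p = 0.765). Palbociclib against DMSO gave 0.00 (95% interval -0.11 to 0.10), and ruxolitinib against DMSO -0.05 (-0.16 to 0.05). With all libraries scaled to the same total, which moves the median gene by -0.23 in the palbociclib comparison, RELA was called lower by palbociclib (-0.23, adjusted p = 0.00149), a difference the size of that shift, and NFKB2 was too (-0.27, adjusted p = 0.0035). Exons of RELA overlap the non-coding gene RELA-DT on the opposite strand, and the strand setting of the counting is not given.

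RELB (chr19:45001461-45038192, plus strand) encodes the partner of the processed NFKB2 product. Proliferating libraries held 360.1, 433 and 331 normalized counts, and DMSO libraries 416, 401 and 436. Palbociclib libraries held 240.1, 267 and 269, and ruxolitinib libraries 339, 357 and 457. All 3 palbociclib values lie below the other 9, which overlap among their groups. RELB fell by 0.69 on the log2 scale with palbociclib against DMSO (SE 0.11, adjusted p = 0.000165). In DMSO against proliferating cells the difference was 0.16 (SE 0.11, adjusted p = 0.207), and it was called at 0.27 without A126 (adjusted p = 0.041; 0.0159 without A119 and A120 too), at 0.39 with the same total (adjusted p = 0.00734), at 0.32 with the same upper quartile (0.0279) and at 0.30 after quantile normalization (0.0229).

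REL (chr2:60881491-60931612, plus strand) encodes c-Rel, best known from lymphocytes, and was the scarcest member, with 42 to 169 reads per library. It measured 153, 90.9 and 161 in proliferating cells, 102, 99.4 and 132 in DMSO cells, 83.0, 46.0 and 62.2 in palbociclib cells and 113, 124 and 86.6 in ruxolitinib cells. Only the palbociclib group was separated from DMSO, by -0.82 (SE 0.23, adjusted p = 0.00928). That call was lost when genes of low level were not filtered out (adjusted p = 0.053) and after quantile normalization (0.0653). Between DMSO and proliferating cells the difference was -0.24 (SE 0.23, adjusted p = 0.356), and without A126, the lowest proliferating library, it was -0.50 (adjusted p = 0.0466; 0.00698 with A119 and A120 left out as well). Exons of REL overlap a non-coding gene on the same strand in GENCODE, so its reads are uncertain to that extent.

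Per kilobase of the canonical transcript, RELA was the most abundant subunit in each group, at 748 ± 32.8 normalized counts per kilobase (SD, n = 3) in proliferating, 819 ± 33.5 in DMSO, 817 ± 20.0 in palbociclib and 788 ± 11.9 in ruxolitinib cells. REL was the least, at 12.1 ± 3.44, 10.0 ± 1.62, 5.74 ± 1.67 and 9.71 ± 1.74 per kilobase in the same order. As a share of the 5 subunits within a library, which does not depend on how libraries are scaled, RELA made up 47.6% ± 1.70 in proliferating, 50.02% ± 0.159 in DMSO, 55.2% ± 1.22 in palbociclib and 50.6% ± 0.644 in ruxolitinib cells. The 3 palbociclib libraries, at 53.9% to 56.2%, lay above the other 9. NFKB1 went from 20.4% ± 1.88 in proliferating to 13.1% ± 0.496 in DMSO, 9.87% ± 0.928 in palbociclib and 11.5% ± 0.899 in ruxolitinib cells. NFKB2 rose from 20.7% ± 1.31 to 25.0% ± 0.470, 26.8% ± 1.95 and 26.4% ± 0.322, so that by this length NFKB2 held the larger share of the 2 precursor genes in every senescent library. In proliferating cells the order of NFKB1 and NFKB2 depended on the length used, at 19.9% and 16.2% by coding length, 27.8% and 21.0% without length scaling and 11.3% and 23.8% by union exon length. RELB held 10.6%, 11.3%, 7.74% and 10.9%. These shares are descriptions with no test, and their size depends on the length used for each gene; coding length, for example, puts RELA at 54.1% in DMSO and 59.9% in palbociclib cells.

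**Figure D4:**
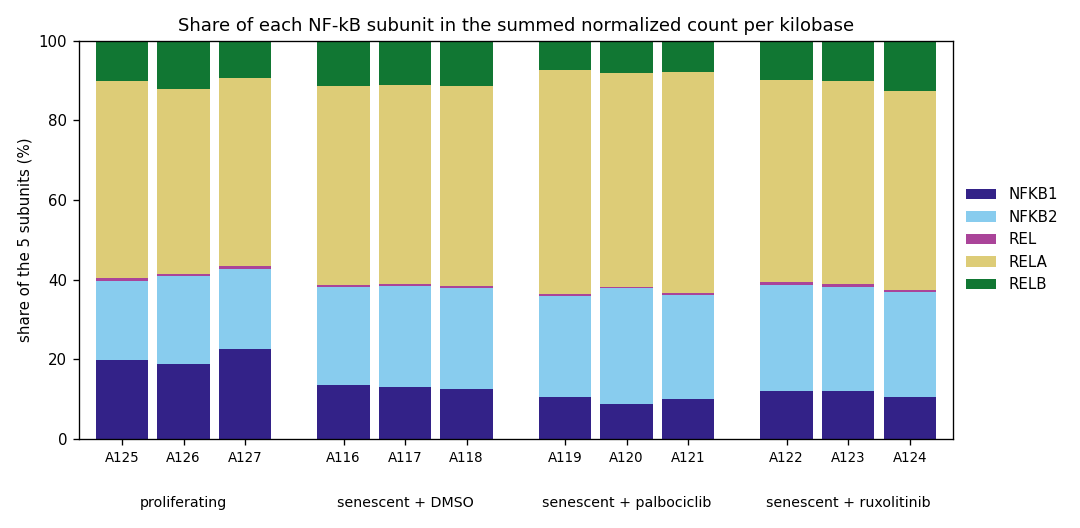
Share of each NF-kB subunit in the summed normalized count per kilobase of the 5 subunits, in percent, 1 bar per library. The NFKB1 part is widest in the 3 proliferating libraries and the RELA part in the 3 palbociclib libraries.

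NFKBIA (chr14:35401079-35404749, minus strand) encodes IkB-alpha, the inhibitor resynthesized after each round of activation. It had 864, 949 and 822 normalized counts in proliferating and 1018.5, 1121 and 1149 in DMSO cells. Palbociclib cells had 453, 621 and 512, and ruxolitinib cells 1197.5, 1033 and 1177. The palbociclib values lie below all others, proliferating cells included, and the ruxolitinib values overlap those of DMSO. NFKBIA rose by 0.32 (SE 0.10, adjusted p = 0.00924) in DMSO against proliferating cells and fell by 1.06 (SE 0.10, adjusted p = 5.6e-07) with palbociclib against DMSO. Ruxolitinib against DMSO gave 0.05 (95% interval -0.16 to 0.26, adjusted p = 0.876). Within a library, the log2 normalized count of NFKBIA minus that of RELA averaged -1.10 ± 0.13 (SD, n = 3) in proliferating, -0.91 ± 0.08 in DMSO, -1.97 ± 0.26 in palbociclib and -0.81 ± 0.14 in ruxolitinib cells, lowest with palbociclib. Relative to NFKB1 the order of the means was another one, with -0.56 ± 0.22 in proliferating, 0.33 ± 0.12 in DMSO, -0.17 ± 0.36 in palbociclib and 0.64 ± 0.20 in ruxolitinib cells, lowest in proliferating cells. The palbociclib libraries, at -0.48 to 0.23, overlapped the proliferating ones (-0.79 to -0.34) and the DMSO ones (0.19 to 0.41).

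NFKBIE (chr6:44258166-44265788, minus strand) encodes IkB-epsilon, a slower feedback inhibitor. It followed the order of NFKBIA at a lower level, with 214, 241 and 201 in proliferating, 287, 359 and 291 in DMSO, 142, 184 and 154 in palbociclib and 309, 333 and 309 in ruxolitinib cells. No palbociclib library overlapped DMSO or proliferating cells. The differences were 0.51 (SE 0.11, adjusted p = 0.000888) for DMSO against proliferating and -0.96 (SE 0.11, adjusted p = 6.99e-06) for palbociclib against DMSO. Ruxolitinib against DMSO gave 0.03 (95% interval -0.22 to 0.27, adjusted p = 0.952).

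NFKBIZ (chr3:101827991-101861022, plus strand) encodes IkB-zeta, a nuclear member of the IkB family that acts as a co-activator at some target genes. It had the largest rise with senescence among the members, from 699, 649.9 and 564 in proliferating to 1666, 1754 and 1871 in DMSO cells. Palbociclib cells held 1126, 1098 and 1111, and ruxolitinib cells 1716, 1548 and 1685. It was the inhibitor or feedback gene that stayed above the proliferating level under palbociclib, with all 3 libraries between the DMSO and proliferating ranges. The difference was 1.47 (SE 0.07, adjusted p = 7.02e-11) for DMSO against proliferating and -0.66 (SE 0.07, adjusted p = 3.64e-06) for palbociclib against DMSO. For ruxolitinib against DMSO it was -0.10 (95% interval -0.25 to 0.06, adjusted p = 0.596). Exons of NFKBIZ overlap those of NXPE3 on the same strand, so some of its reads may be uncertain.

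TNFAIP3 (chr6:137867214-137883314, plus strand) encodes a ubiquitin-editing enzyme that shuts down signalling from TNF and Toll-like receptors, and its printed upstream sequence holds 2 consensus matches side by side. Proliferating cells had 249, 206 and 249 normalized counts and DMSO cells 647, 550.5 and 679. Palbociclib cells had 121, 120.4 and 127, and ruxolitinib cells 418, 344 and 411. The 4 groups did not overlap, in the order DMSO, ruxolitinib, proliferating, palbociclib, and each step in that order was called. TNFAIP3 rose by 1.41 (SE 0.11, adjusted p = 8.29e-09) in DMSO against proliferating cells. It fell by 2.34 (SE 0.11, adjusted p = 1.72e-10) with palbociclib, the largest change of any member in any comparison made here, and by 0.68 (SE 0.11, adjusted p = 0.00103) with ruxolitinib against DMSO. Its exons overlap WAKMAR2 on the opposite strand, and the strand setting of the counting is not given in the sources used here.

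BIRC3 (chr11:102317484-102339403, plus strand) encodes a ubiquitin ligase of the inhibitor-of-apoptosis family that works next to TNF receptors. It had 266, 242 and 289 in proliferating, 596, 593 and 605 in DMSO, 235, 181 and 230.1 in palbociclib and 475, 458 and 447 in ruxolitinib cells. The groups took the same order as for TNFAIP3 without overlap, the proliferating and palbociclib ranges being closest. The difference was 1.17 (SE 0.10, adjusted p = 2.63e-08) for DMSO against proliferating and -1.48 (SE 0.10, adjusted p = 1.06e-08) for palbociclib against DMSO. With ruxolitinib it was -0.38 (SE 0.10, adjusted p = 0.0374), a call that was lost without A125 (adjusted p = 0.0525), A116 (0.118), A117 (0.112), A118 (0.132), A122 (0.0963), A123 (0.126) or A124 (0.155), while the difference stayed between -0.40 and -0.36. A non-coding gene overlaps BIRC3 on the opposite strand.

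The inhibitors, both given at 2 µM on the same days, were compared directly. In limma 8 members were lower with palbociclib than with ruxolitinib and 0 higher, where 17.6% of all genes tested were lower, 22.8% higher and 40.4% called in all. No member was higher at an unadjusted p under 0.05, in edgeR or in DESeq2 either, and the groups did not overlap for 8 members, against 51.8% of all genes. TNFAIP3 differed most, at -1.66 (SE 0.11, adjusted p = 1.14e-08), followed by NFKBIA at -1.11 (SE 0.10, adjusted p = 4.66e-07) and BIRC3 at -1.10 (SE 0.10, adjusted p = 3.91e-07). NFKBIE, REL, NFKBIZ, RELB and NFKB1 differed by -0.99, -0.77, -0.57, -0.56 and -0.30. The call for REL (adjusted p = 0.0155) was lost without A120 (0.0641), A122 (0.0533) or A123 (0.0701), without a filter on low genes (0.0741) and after quantile normalization (0.0729). NFKB2 and RELA differed by -0.06 (95% interval -0.19 to 0.08) and 0.05 (-0.06 to 0.16) and were not called. With libraries scaled to the same total, where the median gene shifts by -0.20, NFKB2 was called lower (-0.26, adjusted p = 0.00613) and RELA took the opposite sign and was called too (-0.15, adjusted p = 0.0246).

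Palbociclib-treated senescent cells were also set against proliferating cells. Of the members, 3 were higher (NFKB2, RELA and NFKBIZ) and 7 lower, where 35.2% of all genes were higher, 38.6% lower and 73.8% called. The groups did not overlap for any of the 10 members, against 70.9% of all genes. NFKB1 lay lowest at -1.13 (SE 0.08, adjusted p = 3.03e-09), then REL at -1.07 (SE 0.23, adjusted p = 0.000703), TNFAIP3 at -0.93 (SE 0.11, adjusted p = 9.88e-07) and NFKBIA at -0.74 (SE 0.10, adjusted p = 5.91e-06). TNFAIP3, NFKBIA, NFKBIE and BIRC3, which were higher in DMSO than in proliferating cells, were thus lower than in proliferating cells under palbociclib, while NFKBIZ stayed higher by 0.81 (SE 0.07, adjusted p = 7.68e-08). For BIRC3 the difference of -0.31 (adjusted p = 0.00999) lost its call without A120 (0.0551) or A127 (0.0503), in a fit of these 2 groups alone (0.0566), after quantile normalization (0.355) and after removal of the GC and length trend (0.385). For NFKBIE the difference of -0.45 (adjusted p = 0.00219) lost it after quantile normalization (-0.22, adjusted p = 0.0911). For RELA the difference of 0.13 (adjusted p = 0.0348) lost it without A119 (0.0641), A121 (0.104), A126 (0.0952) or A127 (0.101).

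Ruxolitinib-treated cells against proliferating cells had 6 members higher, 1 lower and 3 not called, where 32.6% of all genes were higher, 39.5% lower and 72.2% called. The groups did not overlap for 7 members, against 76.2% of all genes. The 6 were NFKB2 and the 5 inhibitor and feedback genes, led by NFKBIZ at 1.37 (SE 0.07, adjusted p = 1.52e-10) and BIRC3 at 0.80 (SE 0.10, adjusted p = 2.28e-06). NFKB1 was lower by -0.83 (SE 0.08, adjusted p = 1.39e-07). RELA, at 0.08 (adjusted p = 0.193), was called higher in edgeR (0.14, adjusted p = 0.0223), in DESeq2 (0.14, 0.0201), with the same total (0.28, 0.000147), with the same upper quartile (0.24, 0.000465) and after quantile normalization (0.24, 0.000532). REL, at -0.29 (adjusted p = 0.274), was called without A126 at -0.55 (adjusted p = 0.0313; 0.00361 without A119 and A120 too). These comparisons share the DMSO or the proliferating libraries with those above, so their values are given side by side and are not independent.

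Other genes of the pathway were taken from lists by role, 104 genes in all, of which 86 were tested. In DMSO against proliferating cells 49 were higher and 17 lower, with a median log2 difference of 0.37. Over all genes tested 33% were higher and 39.3% lower, and the part of the lists called either way lay near the 72.4% of all genes. With palbociclib against DMSO 12 were higher and 39 lower (median -0.18), where 26% of all genes were higher, 22.3% lower and 48.3% called. With ruxolitinib against DMSO the numbers were 2 and 12 (median -0.09), against 1.1% and 3.42% of all genes. Of the known target genes, 23 of 25 tested were higher in DMSO than in proliferating cells (median 1.51). With palbociclib against DMSO 19 were lower and 2 higher (median -0.96). CXCL1, CXCL2, CXCL3, CCL20 and CSF2 averaged under 10 in proliferating and in palbociclib cells. They reached the mean of 10 needed for testing through the DMSO and ruxolitinib groups, so their directions were largely set by that filter. The counts and medians of the targets include them. The lists were chosen with earlier results of these data known, so their counts describe the lists and do not test them. CXCL8, a neutrophil chemokine, went from 72.1 ± 9.91 in proliferating to 1691 ± 136 in DMSO and 193 ± 23.3 in palbociclib cells, and was 1585 ± 125.7 with ruxolitinib. IL6, a secreted cytokine, rose from 152 ± 25.5 to 614 ± 52.6 in DMSO cells (adjusted p = 1e-09), and PTGS2, which encodes an inducible prostaglandin synthase, fell from 479.5 ± 50.8 to 161 ± 28.9 with palbociclib (adjusted p = 4.21e-07). The 2 that were higher with palbociclib, named after their values were seen, were VCAM1, a cell adhesion molecule that went from 352 ± 76.4 to 525 ± 58.9 (adjusted p = 0.0014), and the cyclin gene CCND1 (adjusted p = 0.0141). The CCND1 difference of 0.23 has the size of the median gene's shift with all libraries scaled to the same total (-0.23), and CCND1 was not examined under that scaling. Ruxolitinib lowered 4 of the 25 targets, IRF1, PTGS2, ICAM1 and CSF1, and raised LIF, which was likewise named after its value was seen. IRF1, an interferon-responsive transcription factor, fell from 609.5 ± 31.6 to 399.9 ± 12.3 (adjusted p = 0.00097).

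Upstream of the members, 7 of 10 tested receptors were higher and 2 lower in DMSO than in proliferating cells. TLR1, TLR3 and CD40, among those higher, averaged under 10 in proliferating cells and passed the filter through other groups. Over all genes, 33% were higher and 39.3% lower in that comparison. IL1R1, the signalling receptor for interleukin-1, rose from 909 ± 71.1 to 1669 ± 51.5 and fell to 1001 ± 72.2 with palbociclib (adjusted p = 4.14e-07) and to 1369.9 ± 40.9 with ruxolitinib (adjusted p = 0.0233). Of 18 adaptors and ubiquitin ligases, 9 were higher and 5 lower in DMSO cells, 4 higher and 6 lower with palbociclib, and 5 lower with ruxolitinib, where 4.52% of all genes were called. IRAK2, a kinase-like adaptor of interleukin-1 and Toll-like receptors, rose from 219 ± 9.55 to 541 ± 11.5 and fell to 272 ± 5.18 with palbociclib (adjusted p = 1.91e-08). MYD88, the adaptor shared by those receptors, fell from 1155 ± 39.6 in DMSO to 746 ± 41.5 with palbociclib (adjusted p = 9.2e-07) and 659.96 ± 29.2 with ruxolitinib (adjusted p = 2.71e-07). Of the 10 kinases tested, 2 were higher and 4 lower in DMSO cells, and 1 was higher and 3 lower with palbociclib. IKBKB, the catalytic kinase of the canonical branch, went from 1028 ± 66.7 to 1324 ± 34.7 in DMSO cells (adjusted p = 4.74e-05). CHUK, another IkB kinase gene, went the other way, from 1002 ± 77.9 to 809 ± 14.4 (adjusted p = 0.000639). TAB1 and TAB2 of this list were also called lower in DMSO cells.

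Among the brakes on the pathway, 4 of 10 tested were higher and 3 lower in DMSO cells, and 2 were higher and 2 lower with palbociclib. For the brakes, the kinases and the adaptors these counts lie near the 72.4% and 48.3% of all genes called in the same comparisons, and nothing is read from them. The deubiquitinase gene CYLD rose from 927 ± 92.9 to 1473 ± 9.27 (adjusted p = 7.61e-07). NLRC5, an interferon-responsive regulator, fell with both inhibitors, from 516 ± 20.8 in DMSO to 276 ± 19.7 with palbociclib (adjusted p = 1.15e-07) and 277 ± 6.02 with ruxolitinib (adjusted p = 5.87e-07). TNIP1, which encodes a partner of the TNFAIP3 protein, was higher with both inhibitors, at 4823 ± 247 with palbociclib (adjusted p = 0.00212) and 4721 ± 136 with ruxolitinib (adjusted p = 0.0407) against 4116 ± 214 in DMSO. Its palbociclib difference of 0.23 has the size of the median gene's shift with all libraries scaled to the same total (-0.23). TNIP1 was not examined under that scaling. BCL3, a nuclear IkB protein, was lower in DMSO than in proliferating cells, at 283 ± 30.4 against 655 ± 78.0 (adjusted p = 2.16e-08), so in this comparison it went against NFKBIA, NFKBIE and NFKBIZ. With palbociclib against DMSO BCL3 fell as those genes did (-0.38, adjusted p = 0.00505). The IkB-family genes NFKBIB and NFKBID were called in neither comparison. Of the 6 genes that link DNA damage to NF-kB, PIDD1 rose from 172 ± 22.3 to 525 ± 16.2 in DMSO cells (adjusted p = 1.71e-09) and PARP1 fell from 4693 ± 165 to 1268 ± 33.8 (adjusted p = 1.1e-13). The ligand list held 4 tested genes of 9, and between the inhibitors IL1B measured 6.86 ± 3.69 with palbociclib against 116 ± 10.3 with ruxolitinib (adjusted p = 1.69e-06).

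**Figure D5:**
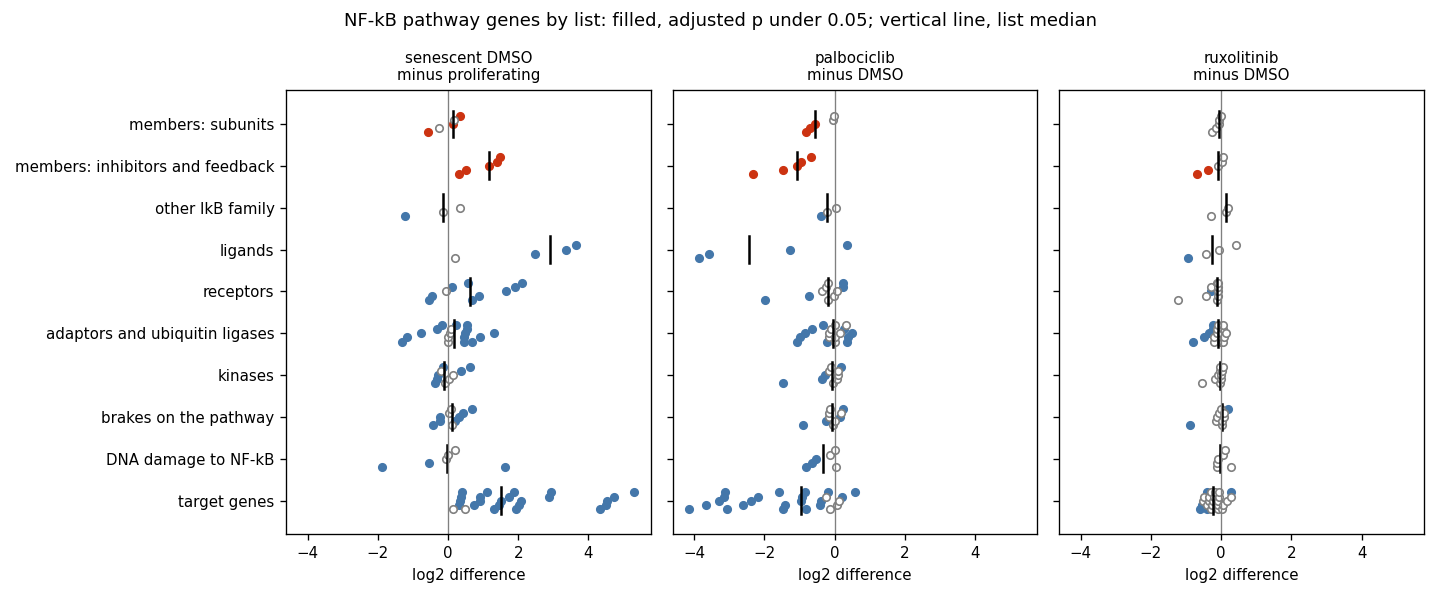
Log2 differences of the members (red) and of other NF-kB pathway genes (blue) by role in 3 comparisons; filled points have an adjusted p under 0.05, open points do not, and the black line is the median of the list. The medians of the target, ligand and inhibitor-member lists lie right of 0 in DMSO against proliferating cells and left of 0 with palbociclib against DMSO, with single genes on either side.

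Markers of other cells were set beside these results. The summed level of 6 leukocyte markers was 544 to 570 in proliferating, 1233 to 1319 in DMSO, 702 to 809 in palbociclib and 1089.5 to 1154 in ruxolitinib libraries, the same order of groups as for NFKBIZ. Nearly all of it was CD68, a lysosomal protein gene, at 1232 ± 46.8 in DMSO cells, while PTPRC was at most 9.90 in any library, LYZ at most 6.57, CD3E at most 2.71 and ITGAM at most 19.8. CD14, a monocyte gene, was low but also moved, from 4.03 ± 2.64 in proliferating to 28.2 ± 1.92 in DMSO (adjusted p = 5.4e-05) and 13.0 ± 5.15 in palbociclib cells (adjusted p = 0.0472 against DMSO), and was 15.96 ± 4.59 with ruxolitinib. The summed level of 5 epithelial markers was 332 to 444 in proliferating, 560.2 to 671 in DMSO, 847 to 1048 in palbociclib and 620.3 to 667 in ruxolitinib libraries. Of these, the keratin genes KRT8 and KRT19 were called higher in DMSO than in proliferating cells (adjusted p = 0.0302 and 7.57e-08) and higher with palbociclib than with DMSO (0.000271 and 0.000659). EPCAM, the remaining epithelial marker tested, went the other way with palbociclib without a call. It averaged 32.3 in DMSO and 20.6 in palbociclib cells (adjusted p = 0.146). CDH1 and SFTPC were too low to be tested. The sum of 4 endothelial markers was at most 56.7 in any library. The summed fibroblast markers also moved, from 822420 to 854900 in proliferating to 408920 to 419590 in DMSO, 651680 to 683890 in palbociclib and 515850 to 520020 in ruxolitinib libraries. Most of that sum was COL1A1, COL1A2 and VIM, which averaged 401320, 226320 and 118670 in proliferating cells. Of the 10 markers, 8 were called lower in DMSO than in proliferating cells and 2, DCN and THY1, higher. With palbociclib against DMSO, 8 were called higher and 1, PDGFRA, lower. The part of these shifts in the members' values was not tested.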

How the data were processed

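RNA from 12 libraries, 3 in each of 4 groups, was captured by its poly(A) tail, per the labels' protocols. The authors deposited normalized counts per Entrez gene, treated here as a non-negative signal; all 160380 values above 0 were whole multiples (tolerance 0.01) of the value of 1 read in their column, so reads were recovered from them. The submitters' processing notes name Trimmomatic 0.38.1, HISAT2 2.2.1, featureCounts 2.0.3 and DESeq2 2.11.40.8 and the build hg38; strand setting and annotation are not given in the sources used here. Column names give group and library number without a replicate number, so columns were mapped to groups only. The table ends at Entrez gene 140467, so its totals are not full depths.

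Differences were tested on log2(normalized count + 1) in limma 3.58.1 (R 4.3.3), with 4 group means over 12 libraries, a mean-variance trend and Benjamini-Hochberg adjustment over the 11242 genes with a mean of at least 10. The code was checked on simulated data. edgeR 4.0.16 and DESeq2 1.42.0 on recovered reads, other pseudocounts, filters, scalings and left-out libraries were alternatives. Leaving out A119, A120 and A126 together, removing GC and length trends, and union exon length were chosen after seeing the data. Canonical transcript lengths and gene coordinates come from GENCODE 44 on GRCh38, since no table of RefSeq transcript lengths was used here; coding length stood in for protein length. Sequences come from the RefSeq promoter table. The members and lists were chosen with earlier results of these data known. Other pathway genes named are among the 4 largest called changes per list and comparison whose higher group averages at least 100. Genes named only for averaging under 10 in some groups are outside this rule.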

Additional observations from a re-analysis of the deposited data

How the results depend on the processing

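Each of the 60 member differences (10 members, 6 comparisons) was recomputed under 26 alternatives: 44 stayed on their side of the threshold in all of them, with their direction where called, and 16 did not in at least 1. RELA reversed in palbociclib against ruxolitinib with the same total (-0.15) and in palbociclib against proliferating cells after removal of the GC and length trend (-0.0092). The number of members lower in DMSO against proliferating cells, 1, was 1 to 2 when a library was left out, and 2 without A119, A120 and A126. In ruxolitinib against proliferating cells it was likewise 1, 1 to 2 and 2; REL without A126 made the difference. The number called and lower in ruxolitinib against DMSO, 2, was 1 without a filter, 1 in limma without a trend, 1 at an adjusted p under 0.01 and 1 to 3 when a library was left out. The RELA share of the subunits was, in proliferating, DMSO, palbociclib and ruxolitinib cells, 50.8%, 54.1%, 59.9% and 54.7% by coding length and 40.3%, 43.9%, 49.3% and 44.6% without length scaling, and 46.9%, 47.2%, 52.4% and 47.4% by union exon length.

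Scaling moved the balance of calls over all genes. In DMSO against proliferating cells 3714 were higher and 4420 lower as deposited, 5273 and 2970 with the same total, where the median gene moved by 0.23, and 4734 and 3416 with the same upper quartile. Palbociclib against DMSO gave 2927 and 2505, then 940 and 5170, then 2182 and 3056. Palbociclib against ruxolitinib gave 2561 and 1983, then 847 and 4531, then 1701 and 2698. Ruxolitinib against proliferating cells gave 3670 and 4443, then 5034 and 3137, then 4771 and 3345. The causes were not tested. No paired analysis was possible because the columns carry no replicate numbers. REL, at 42 to 169 reads per library, is the member whose precision depth limits most.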

Other observations

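The genes whose profiles over the 12 libraries were most like each member were listed, out of 9240 genes with a mean of at least 100. The libraries fall in 4 groups, so these correlations are descriptions of group patterns. For NFKBIA the nearest was PLAU, which encodes the urokinase plasminogen activator, with a Pearson r of 0.99 and means of 19851 in proliferating, 24465 in DMSO, 13930 in palbociclib and 23117 in ruxolitinib cells. TNFAIP3 was nearest to AEN (0.99) and BMP2 (0.98), a secreted growth factor gene with means of 291, 920, 149.96 and 589 in that order. BIRC3 was nearest to PER1 (0.98) and PPM1D (0.98), NFKBIZ to TFPI2 (0.99) and GDF15 (0.99), and NFKB1 to SP4 (0.99). Among the members themselves, TNFAIP3 and BIRC3 had an r of 0.96 and NFKBIA and NFKBIE of 0.95.

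A120 (palbociclib) and A126 (proliferating) deviated from the mean of the other libraries of their group in the same direction for 9 of the 10 members. A119 went the opposite way to A120 for 9. Both are palbociclib libraries and each is part of the reference of the other, so opposite signs are partly built in and nothing is read from them. For REL, the log2 deviations were -0.63 in A120, -0.78 in A126 and 0.62 in A119. Across 11167 genes the deviations of A126 had an r of 0.32 with GC content and of -0.38 with log2 transcript length. For A120 these were 0.20 and -0.42, and for A119 -0.29 and 0.39.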
